A study of Mus musculus with 37 samples.

Results

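The zinc finger genes named Zfp and a number were followed in mouse oocytes and early embryos that lack a subunit of the Hira complex or that carry extra Zscan4 RNA. The 278 members are the protein-coding genes whose symbol is Zfp followed by digits alone and that were listed in all 4 RNA-seq tables of the study, out of 14292 gene symbols listed in all 4. Zfp352 and Zfp57 were left out, and 78 further protein-coding Zfp genes that were listed in only 1 to 3 of the tables were not used here.

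Zinc fingers of this kind fold around a zinc ion and read short runs of DNA, and an array of them gives each protein its own binding sequence. Many Zfp proteins also carry a KRAB domain, which recruits the corepressor Trim28, and through it the histone methyltransferase Setdb1 and HP1 proteins, so that the bound DNA is silenced. KRAB zinc finger genes multiplied by local duplication, lie in clusters of near copies, and are known for silencing endogenous retroviruses and for protecting imprints in early embryos. The Hira complex, of which Cabin1 is a subunit, deposits the replacement histone H3.3 into chromatin outside DNA replication.

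Deletions were made in females of C57BL/6 background by Cre under the Zp3 promoter, which is active in growing oocytes, so that Het and KO females both carried Cre. ZH females had floxed Hira and CabZ females had floxed Cabin1, with 1 floxed allele in Het and both in KO. Germinal vesicle (GV) oocytes were sequenced from 4 Het and 4 KO samples of each line, and 2-cell embryos from 4 Het and 4 KO samples of the CabZ line. In the Zscan4 OE experiment, wild-type GV oocytes received Zscan4d or GFP RNA, were matured and activated without sperm, and were collected as 2-cell embryos, 3 samples with Zscan4 and 4 with GFP. ATAC-seq, which maps open chromatin by transposase insertion, was carried out on GV oocytes of 3 CabZ Het and 3 CabZ KO samples. Oocytes or embryos were pooled within a sample and the labels name no animals, so p-values measure only the spread between these libraries, which may be technical. In pooled material, fewer cells with a transcript and less RNA per cell cannot be told apart.

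Levels are given as FPKM (fragments scaled to gene length and to the size of the library) over the whole gene, introns included, so a long zinc finger gene has a low FPKM with many reads. Reads on the listed genes ranged from 5820937 in a CabZ KO 2-cell library to 21869855 in a GFP library, as recovered from the smallest steps of the values. The genes listed in the ZH table took 74.2% to 74.7% of a library's reads in ZH Het but 66% to 68.2% in ZH KO. Counts with the libraries scaled to the reads on listed genes are given with the ZH results. Of 12 granulosa and cumulus cell markers, 11 were listed in the ZH table. They summed to 0.488 to 0.828 FPKM in ZH Het and 1.26 to 2.54 FPKM in ZH KO. Limma, used as described with the ZH results, tested 4 of them and called none lower in KO. It called Inha (log2 fold change 2.604, adjusted p = 0.0015) and Hsd3b1 (1.66, adjusted p = 0.00542) higher in KO. Fshr, below the level tested, was higher in every KO library than in any Het library. Foxl2 and Has2 were at 0 in KO and Ptx3 at 0 in Het. Oocyte markers summed to 2881 to 3117 FPKM in ZH Het and 2218 to 3012 in ZH KO, with Bmp15, Oosp1, Nobox and Zp2 lower and Figla higher of 11; the part of either list in the ZH results was not tested. In CabZ GV oocytes the granulosa and cumulus markers summed to 0.854 to 1.24 FPKM in Het and 0.940 to 1.47 in KO, in CabZ 2-cell embryos to 0.555 to 2.0 and 1.01 to 1.79, and in the Zscan4 table to 0.260 to 0.381 with GFP and 0.277 to 0.325 with Zscan4. At both CabZ stages Fshr, again below the level tested, was higher in every KO library than in any Het library. Its mean was 0.00439 FPKM in Het and 0.190 in KO oocytes, and 0 and 0.0492 in embryos. Cyp19a1 was likewise higher in every KO library, whereas Star in oocytes and Nr5a2 in embryos were lower in every KO library. Of these CabZ markers limma called only Kitl, higher in KO embryos (1.19, adjusted p = 0.0117). The Hira level does not check the ZH labels, since it was 0.00669 FPKM in Het and 0.00378 in KO. Cabin1 was 0.119 FPKM in CabZ Het and 0.0242 in CabZ KO GV oocytes, below the level tested. A lower Cabin1 level was not particular to that line, since limma also called it lower in ZH KO (0.286 FPKM in Het and 0.0864 in KO; log2 fold change -1.05, adjusted p = 0.000953). In CabZ KO 2-cell embryos limma called Hira lower (-1.22, adjusted p = 0.00783), while Cabin1 did not pass (-0.85, adjusted p = 0.053).

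Of the 278 members, 166 had the letters of a KRAB domain in the longest reading frame of their GENCODE M21 transcripts, and the median reading frame had 11 C2H2 fingers. The genes lay on 20 chromosomes, 66 of them on chromosome 7. Runs of at least 4 members, each less than 500 kb from the next, formed 17 clusters with 136 members, of which 111 had KRAB letters, against 55 of the 142 members outside clusters. Near copies blur the values: in 47 members at least 20% of the 50-base stretches of the transcript occurred in transcripts of other genes, while 113 shared none. How reads with several matches were counted is not given in the sources used here, and 79 members also overlapped another gene, whose reads cannot be told apart in libraries that do not mark the strand.

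Most members were expressed at low levels in oocytes and a few at high ones. In the ZH Het group 84 of 278 members reached a mean of 1 FPKM, against 86 in CabZ Het GV oocytes, 116 in CabZ Het 2-cell embryos and 62 in the GFP 2-cell embryos; each table was normalised separately, so these counts are set side by side only. In that order they are 30.2%, 30.9%, 41.7% and 22.3% of the members. Among all protein-coding genes listed, 25.5%, 32.5%, 30.0% and 25.4% reached that level. The highest member was Zfp296, a factor of pluripotent and germ cells, at a mean of 62.4 FPKM in ZH Het and 89.9 FPKM in CabZ Het GV oocytes. In 2-cell embryos it was Zfp706, a small protein with a single finger, at 166 FPKM in CabZ Het and 83.0 FPKM in GFP embryos. Together the members summed to 496 to 543 FPKM in ZH Het and 406 to 477 FPKM in ZH KO libraries, which did not overlap. All genes of the ZH table together took 74.2% to 74.7% of a library's reads in Het and 66% to 68.2% in KO. Part of the lower sum in ZH KO was therefore shared by all listed genes, and the gap between the groups depends on the scaling. For the CabZ line, sums in GV oocytes were 627 to 704 FPKM in Het and 647 to 691 FPKM in KO, which overlapped. A few abundant members weigh most in such sums. Members with the letters of a KRAB domain alone summed to 201 to 249 FPKM in ZH Het and 222 to 237 FPKM in ZH KO, which overlapped.

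Loss of Hira changed many members in GV oocytes, in both directions. Limma was used on log2(FPKM + 0.1) on genes whose mean over the table reached 0.1 FPKM, with Benjamini-Hochberg adjustment over all genes tested and an adjusted p below 0.05 as the threshold; fold changes are on that log2 scale and understate low genes. Of 224 members tested, 47 were higher and 64 were lower in ZH KO, that is 21% and 28.6%, where 25.8% and 22.1% of all 13156 genes tested were called. With a change of over 2-fold as well, 25 members were higher and 24 lower, against 16.9% and 10.5% of all genes. The median log2 fold change was -0.19 over the members and 0.01 over all genes, and the members' median minus that of all genes lay between -0.25 and -0.07 in the 18 settings of the processing that were tried. With libraries scaled to the reads on listed genes, 56 of 235 members were higher and 55 lower, with a median over all genes of 0.16. Of all 14468 genes tested in that setting, 4293 were higher and 2360 lower. The 86 members without KRAB letters had a median of -0.32 with 15 higher and 26 lower, and the 138 with KRAB letters a median of -0.11 with 32 higher and 38 lower. Members whose sequence was shared at 20% or more counted 16 higher and 4 lower of 38, and the others 31 higher and 60 lower of 186.

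Zfp82, a KRAB zinc finger gene, had the largest change in ZH oocytes. Its level was 0.472, 0.452, 0.539 and 0.463 FPKM in ZH Het and 8.71, 8.98, 3.94 and 6.27 FPKM in ZH KO libraries. Every KO library was thus far above every Het library (log2 fold change 3.54 ± 0.26, SE; adjusted p = 3.13e-05). The reads of Zfp82 cannot be told from those of a second gene, because 94.4% of the 50-base stretches of the Zfp82 transcript occur in transcripts of the overlapping Gm26920, which was at a mean of 0.0150 FPKM in Het and 0.110 in KO. Next among members with a mean of at least 0.5 FPKM came Zfp992, whose values are given with its cluster, and Zfp947, a KRAB gene of chromosome 17, with 0.28, 0.364, 0.199 and 0.259 FPKM in Het and 1.53, 1.49, 2.11 and 0.927 FPKM in KO (2.07 ± 0.25; adjusted p = 0.000325). The KRAB gene Zfp959 was at 1.04, 1.11, 0.971 and 1.16 FPKM in Het and at 4.91, 3.59, 3.62 and 4.78 FPKM in KO (1.87 ± 0.16; adjusted p = 6.25e-05). Zfp819, which is known to bind Trim28 and repress retroviral elements, was at 0.498, 0.448, 0.494 and 0.305 FPKM in Het and 1.99, 1.93, 1.62 and 1.6 FPKM in KO (1.83 ± 0.17; adjusted p = 0.00011). In these 3 genes, too, the lowest KO library was above the highest Het library.

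Among the members that fell in ZH KO were some of the most abundant ones. Zfp296 was at 82.3, 72.3, 45 and 49.9 FPKM in the Het and 10.3, 31.5, 18.9 and 23.5 FPKM in the KO libraries (-1.63 ± 0.34; adjusted p = 0.00507), with no overlap. It overlaps Gemin7, which was at a mean of 14 FPKM in Het and 12.1 in KO. Zfp830, a nuclear protein required for survival of the early embryo, was at 47.6, 42.3, 41.1 and 39.9 FPKM in Het and 18.1, 22.9, 8.48 and 22.8 FPKM in KO (-1.34 ± 0.30; adjusted p = 0.00664). The level of Zfp750, a regulator of epidermal differentiation, was 4.41, 5.29, 5.18 and 3.03 FPKM in Het and 1.24, 2.15, 0.658 and 1.27 FPKM in KO (-1.75 ± 0.33; adjusted p = 0.00285). All 3 were thus lower in every KO library than in any Het library. The same held for Zfp961, a KRAB gene known to act on an endogenous retrovirus, at 2.72, 3.49, 3.62 and 3.1 FPKM in Het and 0.988, 1.02, 1.25 and 1.11 FPKM in KO (-1.48 ± 0.15; adjusted p = 0.000147); it overlaps Cyp4f18. It held as well for Zfp524 (log2 fold change -1.72 ± 0.27), of which 46% of 50-base stretches are shared with Gm44973, Zfp3 (-1.19 ± 0.27), Zfp414 (-1.16 ± 0.20) and Zfp108 (-1.15 ± 0.29). Zfp750 lies within Tbcd, which was at a mean of 0.0188 FPKM in Het and 0.0199 in KO.

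Loss of Cabin1 changed fewer members in GV oocytes, and more of them rose than fell. Of 214 members tested, 24 were higher and 11 were lower in CabZ KO, 11.2% and 5.14% of them, where 7.05% and 4.18% of all 12882 genes were called. Over 2-fold as well, 9 members were higher and 2 lower, against 3.69% and 1.61% of all genes. The median log2 fold change was 0.07 over the members and -0.01 over all genes, and their difference lay between 0.04 and 0.11 in 18 settings. These counts rest on few libraries: without CabZ Het GV 1, 2, 3 or 4 the higher members numbered 10, 15, 12 and 12, and without CabZ KO GV 3 or 4 they numbered 12 and 14. The lower members numbered 6, 7 and 4 without Het 1, 3 or 4 and 5 without KO 4. With the replicate number as a block 14 were higher and 5 lower, and on the values as deposited, not converted to FPKM, 80.0% of the called members were higher in place of 68.6%. Over all genes, 705 were higher and 341 lower on the values as deposited, in place of 908 and 539. Outside the cluster of members on chromosome 4, 18 of 204 members were higher, or 8.82%. The median was 0.12 with KRAB letters, 0.06 without, 0.43 among members whose sequence was shared at 20% or more and 0.05 among the others.

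Both lines moved part of the members in the same direction. Over the 210 members tested in both, 14 were higher in both KO groups, which is 35.9% of the 39 higher in ZH and 63.6% of the 22 higher in CabZ. Of the lower ones 5 were shared, 7.94% of 63 in ZH and 45.5% of 11 in CabZ, and only Zfp820 passed in opposite directions. The same counts over all 11587 genes were 627 higher in both, 23.8% and 76.1% of each list, and 284 lower in both, 10.1% and 57.7%. Across the 210 members the fold changes of both lines had a Pearson r of 0.57 and a Spearman rho of 0.52, and across all genes r was 0.54; members share libraries and sequence, and these are descriptions across genes.

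**Figure D1:**
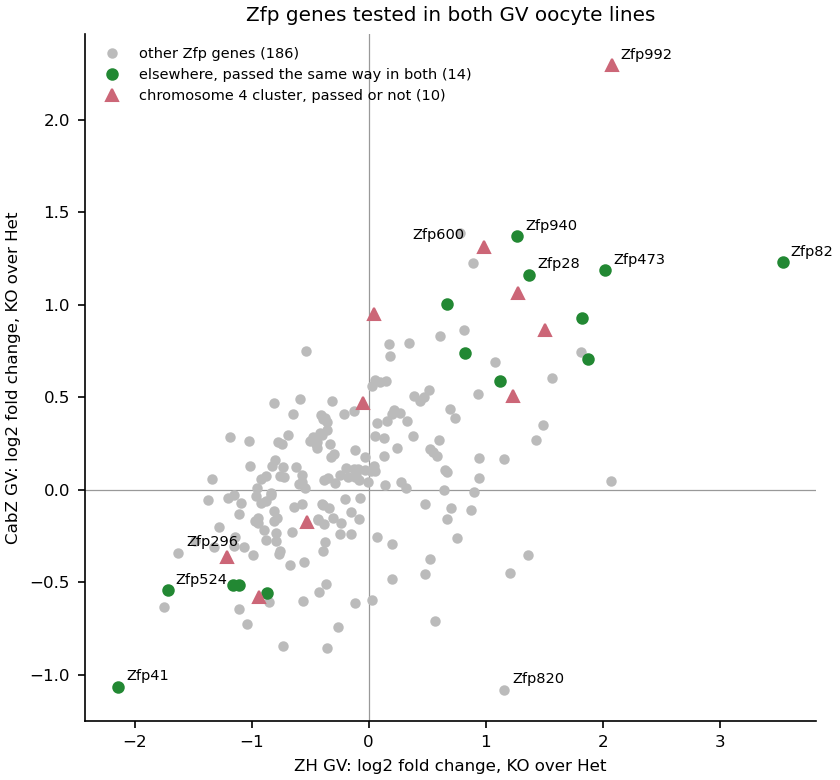
Log2 fold change of KO over Het in ZH GV oocytes (horizontal) against CabZ GV oocytes (vertical) for the 210 Zfp members tested in both; each point is 1 member. The 10 members of the chromosome 4 cluster and the 14 others that passed in the same direction in both lines are coloured, and Zfp992 lies furthest up at 2.08 and 2.29.

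The members higher in both lines were led by Zfp992 and Zfp82. In CabZ GV oocytes Zfp82 was at 0.266, 0.309, 0.582 and 0.575 FPKM in Het and 1.12, 1.15, 1.03 and 1.11 FPKM in KO (1.23 ± 0.23; adjusted p = 0.0111), again with no overlap. Zfp28, a KRAB gene on chr7:6383295-6396915, was at 0.875, 0.849, 0.725 and 0.642 FPKM in ZH Het and 2.28, 2.87, 1.61 and 2.01 FPKM in ZH KO (1.37 ± 0.20; adjusted p = 0.000781). In the CabZ line it was at 0.618, 0.562, 0.649 and 0.439 FPKM in Het and 1.17, 1.82, 1.47 and 1.15 FPKM in KO (1.16 ± 0.19; adjusted p = 0.00611). Thus all 8 KO libraries were above the Het libraries of their line. Zfp940, a KRAB gene on chromosome 7, was at 0.6, 0.499, 0.737 and 0.634 FPKM in CabZ Het and 1.55, 1.9, 1.68 and 1.85 FPKM in CabZ KO (1.37 ± 0.15; adjusted p = 0.0013), and its change in ZH was 1.27 ± 0.29 (adjusted p = 0.00781). Zfp473 has no KRAB letters and is known for its part in the processing of histone messenger RNA. It was at 1.35, 1.25, 1.81 and 2.21 FPKM in ZH Het and 5.01, 10.3, 8.97 and 4.72 FPKM in ZH KO (2.02 ± 0.30; adjusted p = 0.000927), and at 1.07, 1.03, 0.617 and 0.826 FPKM in CabZ Het and 1.84, 3.21, 1.5 and 2.17 FPKM in CabZ KO (1.19 ± 0.25; adjusted p = 0.0184). It overlaps the gene Vrk3, which was at a mean of 0.220 FPKM in ZH Het and 0.484 in ZH KO (0.79 ± 0.26; adjusted p = 0.032). In CabZ GV oocytes Vrk3 was at 0.234 FPKM in Het and 0.381 in KO, a change of 0.52 ± 0.16 that did not pass (adjusted p = 0.0707). Every KO library of Vrk3 was above every Het library in both lines, and its part in the values of Zfp473 was not tested. Zfp689, Zfp959, Zfp819, Zfp970, Zfp24 and, from the chromosome 4 cluster, Zfp600, Zfp978, Zfp979 and Zfp987 completed the 14, with changes of 0.51 to 1.87 in 1 line or the other.

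Of the 5 members lower in both lines, Zfp41 and Zfp68 shared no 50-base stretch of their transcripts with other genes. Zfp41 was at 0.526, 0.497, 0.532 and 0.245 FPKM in ZH Het and 0.0149, 0.0867, 0 and 0 FPKM in ZH KO (-2.14 ± 0.28; adjusted p = 0.000521), and its change in CabZ was -1.07 ± 0.21 (adjusted p = 0.0153). Zfp68 was at 14.9, 16.3, 15.8 and 14.5 FPKM in ZH Het and 6.61, 7.9, 6.96 and 6.93 FPKM in ZH KO (-1.11 ± 0.12; adjusted p = 0.000198). In CabZ it was at 17, 17.5, 18.7 and 16.7 FPKM in Het and 13.1, 12.3, 11.9 and 11.5 FPKM in KO (-0.51 ± 0.09; adjusted p = 0.00812). The groups did not overlap in either line, and the decrease was smaller in CabZ; the difference between the lines was not tested. The others were Zfp383, Zfp414 and Zfp524. Zfp820, a KRAB gene of chromosome 17 singled out after its values were seen, was at 0.488, 0.477, 0.376 and 0.312 FPKM in ZH Het and 0.89, 1.01, 1.58 and 0.79 FPKM in ZH KO (1.16 ± 0.23; adjusted p = 0.00383), but at 0.644, 0.527, 0.396 and 0.501 FPKM in CabZ Het and 0.29, 0.128, 0.141 and 0.224 FPKM in CabZ KO (-1.08 ± 0.22; adjusted p = 0.0155).

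Of the 14 members that were higher in both lines, 5 lay in a single cluster on chromosome 4, at chr4:145670685-147848366 (GRCm38), where 16 members lay, all with KRAB letters. In embryonic stem cells this cluster is known to be needed to keep families of endogenous retroviruses silent. Its genes are near copies, with a median of 71.5% of 50-base stretches found in transcripts of other genes and 13 members at 20% or more, so reads of 1 member may be counted in another. The 150 bases before the annotated starts of 4 cluster members are shown because they are nearly the same sequence, with those of Zfp28 and Zfp296, genes outside it that rose or fell above, for contrast; CG dinucleotides are in capitals, 5′ to 3′ on the strand of the gene (RefSeq, GRCm38.p6).
Zfp600, chr4:146156677-146156826, plus strand: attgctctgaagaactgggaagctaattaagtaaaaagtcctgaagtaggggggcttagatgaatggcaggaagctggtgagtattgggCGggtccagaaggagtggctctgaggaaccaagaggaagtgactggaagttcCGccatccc
Zfp979, chr4:147642509-147642658, minus strand: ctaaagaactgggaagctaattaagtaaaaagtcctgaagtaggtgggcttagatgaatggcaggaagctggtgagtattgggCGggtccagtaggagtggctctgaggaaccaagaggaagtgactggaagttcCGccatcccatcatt
Zfp980, chr4:145670547-145670696, plus strand: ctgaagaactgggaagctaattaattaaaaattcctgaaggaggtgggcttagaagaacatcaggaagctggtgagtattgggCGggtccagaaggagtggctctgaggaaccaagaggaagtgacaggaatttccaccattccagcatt
Zfp987, chr4:146097162-146097311, plus strand: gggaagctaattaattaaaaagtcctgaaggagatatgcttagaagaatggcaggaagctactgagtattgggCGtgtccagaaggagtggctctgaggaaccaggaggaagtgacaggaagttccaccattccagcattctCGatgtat
Zfp28, chr7:6383168-6383317, plus strand: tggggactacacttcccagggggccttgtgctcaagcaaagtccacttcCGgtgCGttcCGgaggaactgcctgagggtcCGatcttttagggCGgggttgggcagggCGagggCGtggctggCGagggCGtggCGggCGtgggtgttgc
Zfp296, chr7:19577137-19577286, plus strand: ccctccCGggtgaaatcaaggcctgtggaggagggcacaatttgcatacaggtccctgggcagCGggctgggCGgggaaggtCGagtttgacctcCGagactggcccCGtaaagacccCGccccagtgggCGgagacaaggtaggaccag

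The cluster promoters held 1 or 2 CG dinucleotides in these 150 bases, where Zfp28 held 11 and Zfp296 held 8. Over 250 bases, Zfp600 and Zfp979 had 94.1% of positions identical, Zfp600 and Zfp980 88.7%, Zfp979 and Zfp980 89.0%, and Zfp987 78.6% to 81.5% with the other 3, while identity to Zfp28 or Zfp296 was 40.2% to 45.6%. Among 10 cluster members with a RefSeq start within 500 bases of that in the table, the median was 2 CG dinucleotides per 250 bases, against 10 over the 204 members matched in this way and 6 over all 32851 promoters. With both strands searched, GGGCGG lay in 7 and CCAAT in 9 of the 10, and neither CCGGAAG nor TATAAA in any. Over the 204 members CCGGAAG, the core of sites for ETS factors, was found in 17.2% and over all promoters in 6.91%; GGGCGG was found in 43.6% and 32.7%, CCAAT in 51.5% and 33.8%, and TATAAA in 4.41% and 12.4%. These are matches of letters and not binding sites.

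Among all genes tested, 25.8% were called higher and 22.1% lower in ZH GV oocytes, and 7.05% and 4.18% in CabZ GV oocytes. In ZH GV oocytes 5 of the 11 cluster members tested were higher and 2 lower in KO, with a median of 0.60. In CabZ GV oocytes 6 of 10 were higher and none lower (1 at an unadjusted p below 0.05), with a median of 0.69. Over 18 settings the median lay between 0.11 and 1.11 in ZH and between 0.34 and 1.06 in CabZ, and in CabZ 3 members were higher without CabZ Het GV 1, without CabZ Het GV 4 or without CabZ KO GV 4. Zfp992 was at 0.119, 0.153, 0.239 and 0.33 FPKM in ZH Het and 0.977, 1.09, 1.32 and 1.3 FPKM in ZH KO (2.08 ± 0.23; adjusted p = 0.000226). In CabZ it was at 0.167, 0.215, 0.154 and 0.175 FPKM in Het and 0.75, 1.25, 1.5 and 1.76 FPKM in KO (2.29 ± 0.24; adjusted p = 0.0011). Every KO library was above the Het libraries in both lines. Zfp979, the most abundant of the cluster, was at 4.22, 5.99, 10.8 and 7.17 FPKM in ZH Het and 19.8, 11.8, 16.7 and 16 FPKM in ZH KO (1.23 ± 0.28; adjusted p = 0.0074), and at 11.6, 11.7, 10.7 and 11.3 FPKM in CabZ Het and 15, 13.3, 18.2 and 18.5 FPKM in CabZ KO (0.51 ± 0.12; adjusted p = 0.0328). Of its 50-base stretches 24.6% were shared, fewer than in most of the cluster. Zfp600, Zfp978 and Zfp987 passed in both lines too, with changes of 0.98 ± 0.21, 1.27 ± 0.22 and 1.51 ± 0.28 in ZH and 1.31 ± 0.23, 1.06 ± 0.23 and 0.86 ± 0.19 in CabZ. Zfp534 was higher in CabZ only by the test (0.95 ± 0.19; adjusted p = 0.015), with 0.04 ± 0.22 in ZH, and Zfp933 (-1.21 ± 0.18) and Zfp982 (-0.94 ± 0.22) were lower in ZH.

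Summed over the cluster, the 16 members were at 13.2, 18.2, 25.9 and 20.3 FPKM in ZH Het and 34.6, 25, 29.9 and 29.7 FPKM in ZH KO. In CabZ GV oocytes the sum was 23.2, 22, 25.8 and 22.8 FPKM in Het and 27.5, 27.0, 34.7 and 37.0 FPKM in KO. In CabZ 2-cell embryos it was 172, 123, 143 and 130 FPKM in Het and 177, 170, 178 and 161 FPKM in KO. The groups overlapped in ZH oocytes and in 2-cell embryos and not in CabZ oocytes. GFP embryos were at 63.7 to 74.0 FPKM and Zscan4 OE embryos at 53.0 to 62.3 FPKM.

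The 2-cell embryos without maternal Cabin1 split the cluster. There 5 of 16 members were higher and 5 lower, where 21.2% and 18.2% of all genes were called. The cluster median was -0.54, which turned to 0.11 on the values as deposited. Without CabZ Het 2-cell 4, without CabZ KO 2-cell 2 or without CabZ KO 2-cell 4, 3 members were lower. Zfp979 was at 51.4, 36.2, 39.1 and 40.3 FPKM in CabZ Het and 65.7, 73.1, 82 and 73.7 FPKM in CabZ KO embryos (0.82 ± 0.17; adjusted p = 0.00546). Zfp992 was at 2.22, 2.38, 3.06 and 3.28 FPKM in Het and 6.46, 6.64, 6.3 and 5.8 FPKM in KO (1.19 ± 0.20; adjusted p = 0.00279). With Zfp600, Zfp978 and Zfp980 they made up the 5 that rose, and in Zfp979 and Zfp992 no Het library reached a KO library. In the other direction, Zfp981 was at 7.64, 8.96, 8.29 and 6.19 FPKM in Het and 1.82, 1.41, 1.83 and 0.857 FPKM in KO (-2.36 ± 0.28; adjusted p = 0.000754), and Zfp988 at 7.7, 8.49, 6.42 and 7.56 FPKM in Het and 2.53, 2.05, 3.94 and 1.51 FPKM in KO (-1.63 ± 0.29; adjusted p = 0.00358). Zfp534 (-0.98 ± 0.21), Zfp985 (-1.60 ± 0.54) and Zfp986 (-1.31 ± 0.41) were lower as well.

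**Figure D2:**
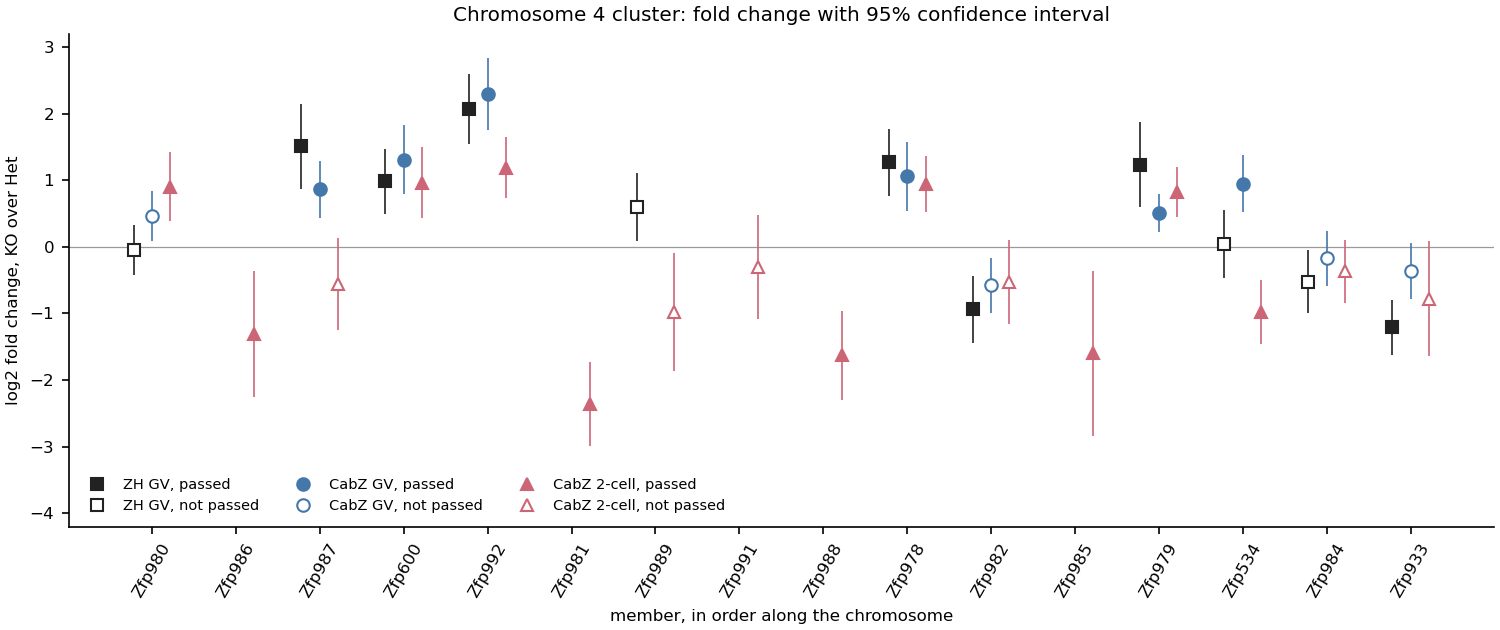
Log2 fold change of KO over Het, with 95% confidence interval, for the members of the chromosome 4 cluster in chromosomal order in ZH GV oocytes, CabZ GV oocytes and CabZ 2-cell embryos. Zfp992 lies between 1.19 and 2.29 in all 3 comparisons, whereas Zfp981 lies at -2.36 in the 2-cell embryos.

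The other clusters differed from each other and between the comparisons. Of all genes, 25.8% were higher and 22.1% lower in ZH oocytes. The shares were 7.05% and 4.18% in CabZ oocytes and 21.2% and 18.2% in the embryos. On chromosome 17, the cluster at 33 Mb had 1 member higher and 5 lower of 8 in ZH oocytes, with a median of -0.63: Zfp81, Zfp414, Zfp563, Zfp870 and Zfp952 were lower and Zfp101 higher. Over the settings 0 to 1 were higher and 2 to 5 lower there. The cluster at 21 Mb of the same chromosome had 5 higher and 2 lower of 17 in ZH, Zfp54 (2.09 ± 0.20), Zfp947 (2.07 ± 0.25), Zfp677 (1.21 ± 0.17), Zfp820 and Zfp948 being the higher ones. Over the settings 0 to 6 members were higher and 0 to 4 lower, with a median between -0.31 and 0.20. In CabZ oocytes the same cluster had 3 lower and none higher of 15, with none higher at an unadjusted p below 0.05 either. On chromosome 2 at 177 Mb all 3 members tested were higher in ZH, Zfp931 (0.94 ± 0.33), Zfp970 (0.82 ± 0.20) and Zfp971 (1.57 ± 0.31). Over the settings 1 to 3 were higher there. The median of shared 50-base stretches in this cluster was 54.9%, so reads of 1 member may be counted in another. In the 2-cell embryos the chromosome 7 cluster at 42 Mb had none higher and 4 lower of 6, Zfp977 (-3.18 ± 0.62), Zfp719 (-2.13 ± 0.50), Zfp936 (-1.62 ± 0.36) and Zfp141 (-1.24 ± 0.34), while that at 30 Mb had 5 higher, Zfp146, Zfp383, Zfp420, Zfp790 and Zfp940, and 1 lower of 13. Over the settings, 1 to 4 were lower at 42 Mb and 2 to 6 higher at 30 Mb. The chromosome 13 cluster at 67 Mb had a median of 1.08 in the embryos, between 0.36 and 1.64 over the settings, with Zfp85 (2.06 ± 0.56), Zfp953 (1.38 ± 0.36) and Zfp708 (1.03 ± 0.24) higher and Zfp87 (-1.78 ± 0.41) lower of 12 tested; over the settings 2 to 7 were higher, 5 with the replicate block and 7, with none lower, on the values as deposited.

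**Figure D3:**
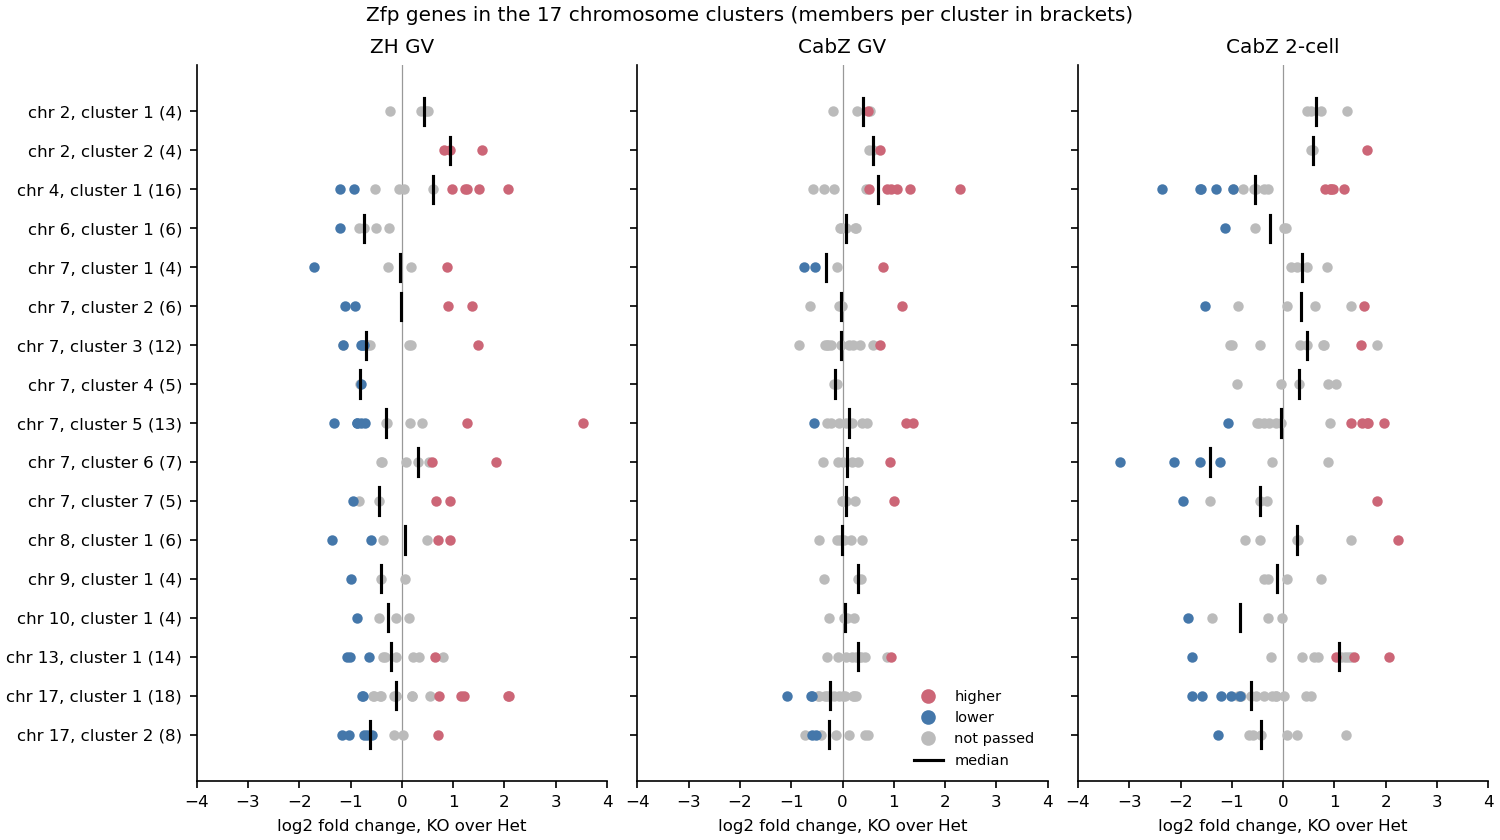
Median log2 fold change of KO over Het for the 17 clusters of Zfp genes, by chromosome and order of position, in ZH GV oocytes, CabZ GV oocytes and CabZ 2-cell embryos; the number of members stands in parentheses. The chromosome 4 cluster has medians of 0.60, 0.69 and -0.54, and chromosome 7 cluster 6, at 42 Mb, has -1.43 in the 2-cell embryos.

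The 2-cell embryos of CabZ females had a wide spread of changes among the members. Of 248 tested, 36 were higher and 46 lower in KO, 14.5% and 18.5%, where 21.2% and 18.2% of all 17177 genes were called. Over 2-fold as well, 28 were higher and 39 lower, against 18.8% and 16.0% of all genes. The median log2 fold change was -0.22 over the members and 0.13 over all genes, and the difference lay between -0.38 and -0.14 in 18 settings. Directions depend on the scaling: the share of called members that were higher was 43.9% as reported, and 59.5% (50 higher, 34 lower) when the libraries were scaled by their median, with a median over all genes of 0.38. Over all genes, 4668 were then higher and 2567 lower, in place of 3649 and 3129. Without CabZ Het 2-cell 2 the lower members numbered 30. The KO libraries were shallower, with at most 6331597 reads on genes against at least 7949926 in Het, and 9 of 11 oocyte markers were higher in KO, 5 without CabZ Het 2-cell 3 or without CabZ KO 2-cell 4; the part of either in these results was not tested. How these embryos were obtained, by mating or by activation, is not given in the sources used here.

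The 8 members Zfp28, Zfp473, Zfp600, Zfp689, Zfp940, Zfp978, Zfp979 and Zfp992 were higher in KO in both oocyte comparisons and in the 2-cell embryos. In the embryos Zfp28 was at 0.129, 0, 0.0828 and 0.0445 FPKM in Het and 0.389, 0.246, 0.51 and 0.353 FPKM in KO (1.57 ± 0.35; adjusted p = 0.00836). Zfp473 was at 0, 0.251, 0.224 and 0.353 FPKM in Het and 0.997, 1.57, 1.42 and 1.29 FPKM in KO (2.39 ± 0.47; adjusted p = 0.00502). Each was at 0 FPKM in 1 Het embryo library, whereas all Het oocyte libraries had reads of both. Zfp940 was at 0.238, 0.0251, 0.1 and 0.188 FPKM in Het and 0.871, 0.478, 0.662 and 1.24 FPKM in KO (1.97 ± 0.41; adjusted p = 0.00622), and Zfp689 at 0.0358, 0.488, 0 and 0.247 FPKM in Het and 0.614, 1.3, 0.495 and 0.632 FPKM in KO (1.82 ± 0.58; adjusted p = 0.0364). These 8 are 3.98% of the 201 members tested in all 3 comparisons, where 305 of 10625 genes, or 2.87%, were higher in all 3. In none of the 3 passed 59 members, 29.4% of the 201, against 28.1% of all genes, and 18 members were tested in none.

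**Figure D4:**
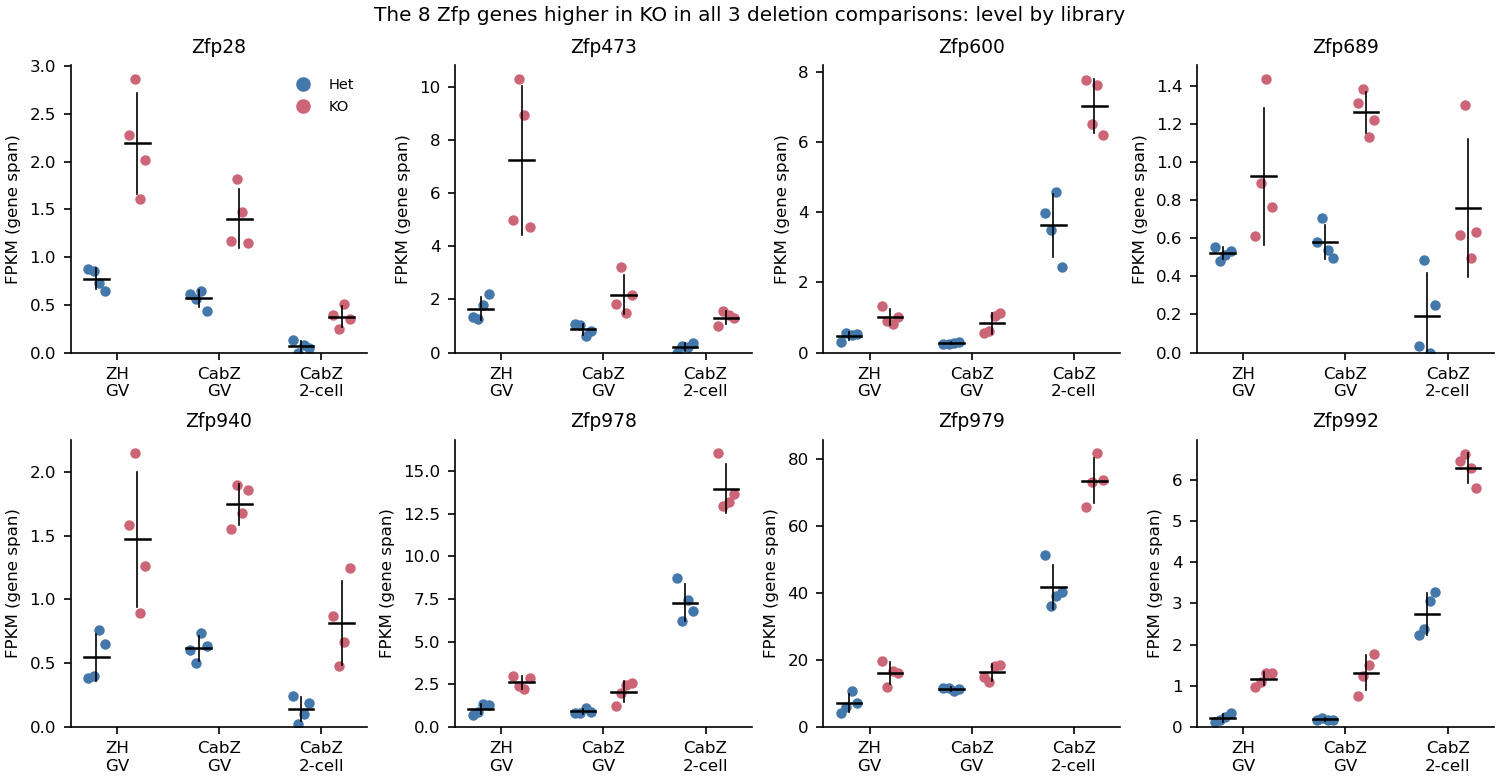
Levels, in FPKM over the gene span, of the 8 Zfp genes that were higher in KO in ZH GV oocytes, CabZ GV oocytes and CabZ 2-cell embryos. Points are libraries, 4 per group, and lines with bars are the mean and SD; Zfp979 is highest throughout, at 51.4 FPKM or less in Het and 65.7 FPKM or more in KO 2-cell embryos.

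Further members were higher in the KO embryos, some of which had passed in oocytes too. Zfp706 was at 184, 153, 154 and 173 FPKM in CabZ Het and 333, 370, 311 and 371 FPKM in CabZ KO embryos (1.06 ± 0.13; adjusted p = 0.0009), so that no libraries overlapped, with changes of 0.28 ± 0.12 in ZH and 0.04 ± 0.10 in CabZ oocytes that did not pass. The KRAB gene Zfp184 was at 0.216, 0, 0 and 0.379 FPKM in Het and 1.92, 1.76, 1.68 and 1.06 FPKM in KO (3.08 ± 0.55; adjusted p = 0.00331), and was lower in ZH KO oocytes (-0.57 ± 0.18). Zfp735, a KRAB gene on chromosome 11, was at 2.73, 0.689, 0.566 and 1.97 FPKM in Het and 7.09, 11.5, 10.7 and 13.1 FPKM in KO (2.98 ± 0.49; adjusted p = 0.0023), and was also higher in CabZ KO oocytes (0.75 ± 0.15). The embryos of the KO group thus held each of these at levels above every Het library. Zfp692 (2.37 ± 0.41), Zfp963 (2.23 ± 0.41), Zfp277 (2.10 ± 0.25), Zfp85 (2.06 ± 0.56) and Zfp616 (1.74 ± 0.31) rose too; Zfp692 was also higher in CabZ KO oocytes (0.58 ± 0.15) and Zfp963 lower in ZH KO oocytes (-0.60 ± 0.17). No difference between stages was tested. Zfp383 was lower in both oocyte comparisons and higher in the embryos (1.64 ± 0.33; adjusted p = 0.00527).

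Among members with a mean of at least 0.5 FPKM, the largest decrease in the embryos was in Zfp977. Zfp977, a KRAB gene of chromosome 7, was at 3.25, 4.47, 5.85 and 3.35 FPKM in Het and 0.228, 0.375, 1.57 and 0.0808 FPKM in KO (-3.18 ± 0.62; adjusted p = 0.0048). Zfp593, whose yeast relative acts in assembly of the large ribosomal subunit, was at 10.7, 30.1, 16.6 and 17.5 FPKM in Het and 4.5, 2.18, 5.85 and 2.37 FPKM in KO (-2.32 ± 0.41; adjusted p = 0.00321). Zfp639 was at 34.8, 51.3, 54.6 and 50.02 FPKM in Het and 8.27, 12.3, 16.8 and 14.1 FPKM in KO (-1.91 ± 0.26; adjusted p = 0.00112), and was higher in ZH KO oocytes (0.67 ± 0.23). No KO library of these 3 genes reached a Het library. Zfp825 (-2.71 ± 0.59), Zfp821 (-2.42 ± 0.41), Zfp707 (-2.27 ± 0.72), Zfp775 (-2.19 ± 0.34) and Zfp719 (-2.13 ± 0.50) were lower too. Zfp296, already lower in ZH oocytes, was lower in the embryos (-1.60 ± 0.52; adjusted p = 0.0397), and its change in CabZ oocytes was -0.34 ± 0.12 (adjusted p = 0.106).

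**Figure D5:**
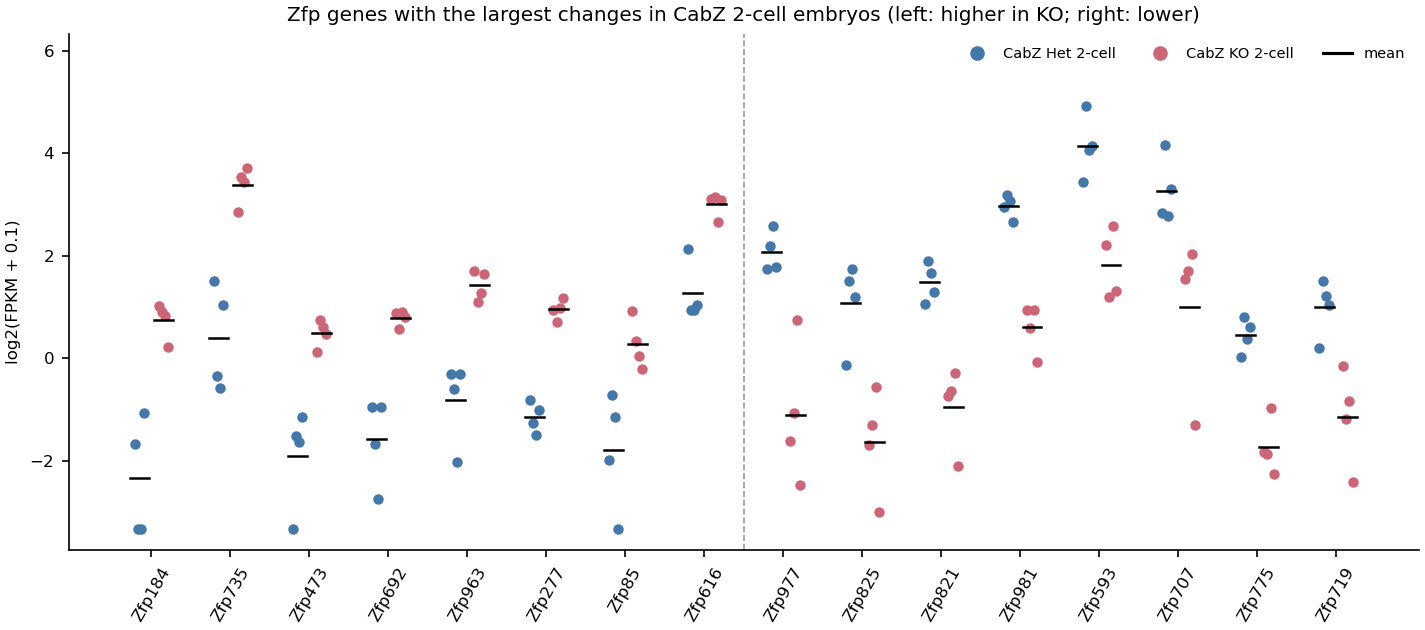
Levels, as log2(FPKM + 0.1), of the 8 Zfp genes with the largest increase and the 8 with the largest decrease in CabZ KO 2-cell embryos. Points are libraries of CabZ Het and CabZ KO, 4 per group, and lines are means. Zfp184 was at 0 FPKM in 2 of the Het libraries, and Zfp977 was at 1.57 FPKM or less in every KO library.

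Members were also grouped by GFP 2-cell level against ZH Het GV level, more than 2-fold apart either way with 0.1 FPKM added to both. This is a comparison across tables that were normalised separately, and 44 members were not classed. Of 32 tested members with the higher level in 2-cell embryos, 6 were higher and 11 lower in CabZ KO embryos, 18.8% and 34.4%; of all genes of that class 29.6% were higher and 17.9% lower. Of 69 with the lower level in 2-cell embryos, 9 were higher and 11 lower, where 16.4% and 27.6% of all such genes were. Fold changes of the members in CabZ oocytes and in CabZ embryos had r of 0.22 over 204 members, where r over all 11563 genes was 0.25. Of these members 11 were higher in both, 45.8% of those higher in oocytes and 33.3% of those higher in embryos, and 1 was lower in both, 10% and 3.03%. Over all genes 464 were higher in both, 55% and 17.01%, and 108 lower in both, 22.4% and 4.46%. Fold changes in ZH oocytes and CabZ embryos had r of 0.01 over 213 members and 0.15 over all 11294 genes.

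Members with known roles are given beside the share of all genes called, which was 25.8% higher and 22.1% lower in ZH oocytes, 7.05% and 4.18% in CabZ oocytes, and 21.2% and 18.2% in the embryos. Of 13 members that bind RNA or act in making or checking proteins, 1 was higher and 4 lower of 11 in ZH oocytes, none passed in CabZ oocytes, and 1 was higher and 6 lower of 13 in the embryos. The lower ones in embryos were Zfp593, Zfp622 (-1.81 ± 0.39), which acts on the large ribosomal subunit, Zfp598 (-1.05 ± 0.34), which marks collided ribosomes, Zfp207 (-0.93 ± 0.22), which acts at the spindle, Zfp346 (-1.61 ± 0.36), which binds double-stranded RNA, and Zfp638 (-0.91 ± 0.28). In CabZ oocytes limma called 0 of the 10, and none had an unadjusted p below 0.05. Of 14 developmental regulators, 3 were higher and 2 lower of 9 in ZH oocytes, and 1, Zfp131 (0.59 ± 0.16), was higher and none lower of 9 in CabZ oocytes, with 1 lower at an unadjusted p below 0.05. In the embryos 1 was higher and 5 lower of 13, the 5 becoming 2 without CabZ Het 2-cell 2 and 3 without any 1 of Het 3, Het 4, KO 2 or KO 3. Those 5 were Zfp42 (-0.93 ± 0.27), the pluripotency marker known as Rex1, Zfp143 (-1.39 ± 0.25), a promoter-binding activator, Zfp335 (-1.62 ± 0.36), Zfp410 (-0.79 ± 0.23), the activator of Chd4, and Zfp296; Zfp410 was higher in ZH oocytes (1.16 ± 0.14).

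Of 15 members linked to retroviral repeats or imprints, 2 were higher and 6 lower of 13 in ZH oocytes, 3 higher and none lower of 13 in CabZ oocytes, and 3 higher and none lower of 15 in the embryos. At an unadjusted p below 0.05, 0 and 2 were lower in the last 2 comparisons. The 20% of these members that were higher in the embryos stand beside 21.2% of all genes, the 23.1% in CabZ oocytes beside 7.05%, and the 15.4% in ZH oocytes beside 25.8%. In ZH oocytes Zfp819 and Zfp600 were higher. Zfp568 (-0.72 ± 0.18), a repressor of a placental Igf2 promoter, Zfp445 (-0.69 ± 0.24), which protects imprints, Zfp708 (-1.02 ± 0.28), Zfp738 (-0.64 ± 0.16), Zfp110 (-1.10 ± 0.22) and Zfp961 were lower. In CabZ oocytes Zfp819, Zfp600 and Zfp459 (0.95 ± 0.19) were higher, and in the embryos Zfp600, Zfp708 and Zfp932 (0.85 ± 0.22), a repressor of endogenous retroviruses, were.

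The partners through which KRAB proteins silence DNA were taken as a list of 32 genes, Trim28 among them. In ZH oocytes 3 of 30 tested were higher and 11 lower, where 25.8% and 22.1% of all genes were called. Trim28 itself was at a mean of 0.850 FPKM in Het and 1.0 in KO, a change of 0.17 that did not pass. Lower were the DNA methyltransferase cofactor Dnmt3l (-1.56), the maintenance methyltransferase Dnmt1 (-1.28), Suv39h2 (-1.18), Atrx (-1.0), which deposits H3.3 at repeats with Daxx, Atf7ip (-0.95), Hdac2 (-0.79), Nsd1 (-0.70), Cbx5 (-0.57), Smarcad1 (-0.56), Setdb1 (-0.47) and Trim24 (-0.40). Higher were H3f3b (1.04), a gene for H3.3, Trim33 (0.59) and Pphln1 (0.45); only 1 of the list was higher without ZH Het GV 1, 2 or 3 or without ZH KO GV 4. In CabZ oocytes Daxx (1.03) and H3f3b (0.70) were higher and none of 30 was lower, with 2 lower at an unadjusted p below 0.05. Of all genes, 7.05% were called higher and 4.18% lower in that comparison. The embryos had 3 higher and 11 lower of 32, where 21.2% and 18.2% of all genes were called. Trim28 was at a mean of 1.27 FPKM in Het and 0.327 in KO embryos (log2 fold change -1.66 ± 0.29; adjusted p = 0.00328). Sumo2 (-2.56), Hdac1 (-1.84), Suv39h1 (-1.79), Cbx3 (-1.70), Smarcad1 (-1.57), Trim33 (-1.33), Morc2a (-1.18), Pphln1 (-1.07), H3f3a (-1.05) and Morc3 (-0.94) were lower there too. Cbx1 (1.45), Uhrf1 (1.38) and Suv39h2 (0.69) were higher, while the count was 1 without Het 2, without Het 3 or without any 1 of the KO libraries.

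Zscan4 OE gave no member past the threshold in limma. Of 200 members tested, 0 were higher and 0 lower, where 0.0548% and 0.283% of all 10952 genes were called; at an unadjusted p below 0.05, 16 members were higher and 17 lower, against 6.67% and 8.14% of all genes. Taken as reads scaled to library size alone instead of FPKM, 6 members passed, all lower in Zscan4 OE: Zfp54, Zfp386, Zfp472, Zfp808, Zfp985 and Zfp988. With the replicate number as a block 0 passed. The median change was 0.00 over the members and 0.07 over all genes. Zfp979 was at 25.8, 29.2, 30.2 and 33.3 FPKM with GFP and 19.5, 20.2 and 26.1 FPKM with Zscan4 (-0.44 ± 0.17; adjusted p = 0.295), and Zfp706 at 82.9, 85.3, 81.9 and 81.8 FPKM with GFP and 103, 115 and 93.8 FPKM with Zscan4 (0.32 ± 0.13; adjusted p = 0.301). The lowest Zscan4 library of Zfp706 was above the highest GFP library, while those of Zfp979 overlapped. In the chromosome 4 cluster the median was -0.38 over 13 members, of which 5 were lower at an unadjusted p below 0.05, and of 27 genes of the Trim28 list 0 passed, with 3 higher and 1 lower at that unadjusted p.

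ATAC peaks near the starts of members were fewer in 2 of the 3 KO libraries than in any Het library, as were peaks in all. A peak within 500 bases of the start was present for 29, 49 and 103 of the 278 members in CabZ Het A, B and C and for 37, 8 and 16 in CabZ KO A, B and C. The same share over all protein-coding genes was 11.9%, 24.4% and 44.1% in Het and 17.9%, 5.44% and 7.15% in KO, and the peaks in all numbered 43399, 67074 and 111327 in Het and 46070, 19160 and 29600 in KO. The member counts thus moved with the total of peaks that each library gave, and their groups overlapped; with 3 libraries against 3 an exact permutation test cannot go below p = 0.10, and none was made. Over all 6 libraries 129 members had a peak in at least 1 and 149 in none, 11 had one in all 3 Het libraries, 2 in all 3 KO libraries and 1 in all 6. Of the 24 members higher in CabZ KO oocytes, 8 had a peak in any Het and 1 in any KO library, 33.3% and 4.17%. Of the 11 lower members 4 and 1 did, 36.4% and 9.09%, and of the 179 that did not pass 87 and 38 did, 48.6% and 21.2%. In the chromosome 4 cluster 6 of 16 members had a peak in any library. Only ATAC reads that matched a single place in the genome were kept by the authors.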

How the data were processed

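RNA was amplified by SMART-seq2 and made into libraries with Nextera XT, and per the paper's methods and the labels reads were aligned to mm10 with STAR (2.5.3a) and quantified in Partek. The tables deposited by the authors hold FPKM over the whole gene span plus a constant of 0.01 or, in the Zscan4 table, 0.001, which was subtracted as the minimum of each table. Both CabZ tables hold a deposited score, not the FPKM that the planned tests assumed: reads over the squared span, scaled to equal totals, as judged from the values. FPKM were restored by multiplying by the span and dividing by the library's sum of score times squared span. Reads per library were recovered from the smallest steps of the values, with 81.2% to 88.7% of values coming out whole, so no count test was used. ATAC reads were aligned by the authors with Bowtie2 (2.3) and peaks called per library with MACS2; the deposited peak files give fold enrichment as a ratio and −log10 q-values. Columns of 0 further samples were left out.

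Each table was fitted alone with limma 3.58.1 (R 4.3.3; eBayes with trend) on log2(FPKM + 0.1), for genes whose mean over the table reached 0.1 FPKM, with Benjamini-Hochberg adjustment over all genes, and the fits were tested on simulated data. Other steps used Python 3.11.15 with scipy 1.17.1, pandas 2.3.3, numpy 2.4.6 and, for plots, matplotlib 3.10.9. The members, lists and tests were chosen with earlier results of these data known. KRAB letters were called from 9 of 12 anchor residues in the longest open reading frame of the GENCODE M21 transcripts, whose 50-base stretches were also compared between genes, and a peak counted within 500 bases of a start. RefSeq promoters were matched by symbol for 231 members, of which 204 had a start within 500 bases of the table's.

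Genes were named by rule: per comparison up to 8 members per direction of largest change among those with an adjusted p below 0.05, over 2-fold, no overlap of groups and a mean of at least 0.5 FPKM; members passing in both GV lines by this rule; members of the role lists; up to 3 per cluster and 5 per table by level; and genes of the Trim28 list that passed. Zfp24, Zfp41, Zfp81, Zfp87, Zfp101, Zfp141, Zfp146, Zfp386, Zfp534, Zfp563, Zfp677, Zfp790, Zfp808, Zfp820, Zfp870, Zfp933, Zfp948, Zfp953, Zfp985, Zfp986 and Zfp988 lie outside it and were named after their values were seen. Alternatives were other filters, pseudocounts, scalings and units, a replicate block, a 2-fold threshold, other peak limits and leaving out each library; those that leave out an ATAC library were added after the data were seen. Same-numbered libraries did not deviate together (r between -0.19 and 0.16), so numbers were not taken as pairs.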

Additional observations from a re-analysis of the deposited data

Results flagged for a closer look

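Zfp616 stood out for its spread within a group, in 2 of the 86 groups of 4 libraries examined; chance alone flags about 1 group in 20. In CabZ Het 2-cell embryos library 1 was at 4.29 FPKM and the other 3 libraries at 1.82 to 1.95 FPKM. In CabZ KO 2-cell embryos library 3 was at 6.21 FPKM and the other 3 at 8.45 to 8.79 FPKM.

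A pair of members moved in opposite directions at the 2 stages of the CabZ line, with every KO library on 1 side of every Het library at both. Zfp383, a KRAB gene of chromosome 7, had a log2 fold change of -0.56 in GV oocytes and 1.64 in 2-cell embryos. Zfp534, of the chromosome 4 cluster, had 0.95 in GV oocytes and -0.98 in 2-cell embryos. The difference between the stages was not tested, as the tables were normalised separately.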

How the results depend on the processing

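Of the counts of members that passed, those below moved by more than 1.5 times; the cause was not tested unless fewer genes or libraries entered. With a 2-fold threshold, ZH counted 25 higher and 24 lower in place of 47 and 64, and CabZ GV 9 and 2 in place of 24 and 11. With a mean of at least 1 FPKM, log2(FPKM + 1) and no trend, fewer members were tested: 18 were higher and 30 lower in ZH, 10 higher in CabZ GV and 22 higher in CabZ 2-cell. A filter of 0.5 FPKM left 30 higher and 40 lower in ZH. On the values as deposited 4 were lower in CabZ GV, and 62 higher and 13 lower in CabZ 2-cell (36 and 46 as reported), with a median of 0.69 over all genes. On reads scaled to library size alone 6 were lower with Zscan4 OE in place of 0.

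Leaving out 1 library at a time gave 37 to 46 higher and 51 to 73 lower in ZH, 10 to 25 and 4 to 9 in CabZ GV, 31 to 40 and 30 to 43 in CabZ 2-cell (30 without CabZ Het 2-cell 2), and 0 to 0 with Zscan4 OE. The mean number of members with an ATAC peak was 60.3 in Het and 20.3 in KO, 11 and 3 at a −log10 q of at least 5, and 39 to 76 and 12 to 26.5 with 1 library left out, the lowest without CabZ Het C and without CabZ KO A.

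With the replicate number as a block, 45 members were higher and 56 lower in ZH, 14 and 5 in CabZ GV, 36 and 34 in CabZ 2-cell and 0 and 0 with Zscan4 OE; the numbers are not taken to pair the samples. Scaling by the median gave 37 higher and 77 lower in ZH, with a median over all genes of -0.14, and scaling to reads on listed genes gave 56 and 55, with 0.16. For 43 values of named members, 694 of 718 alternatives kept direction and side of the threshold, 24 kept the direction alone, and 0 reversed; the 24 were in Zfp428 in ZH, Zfp473 and Zfp978 in CabZ GV, and Zfp85, Zfp707 and Zfp719 in CabZ 2-cell. Shallow libraries limit low members: those below the filter were not tested.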
